A study of Mus musculus with 24 samples.

Results

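The miR-17-92 cluster is a run of 6 microRNA hairpins on mouse chromosome 14 that are transcribed together, and 10 mature arms of it were followed here. The arms were chosen by name, as all rows of the deposited count table listed for the cluster, and they are 10 of the 1907 mature miRNA names in that table. Small RNA was sequenced from the subcutaneous fat of mice on a high-fat or a control diet, after feeding for 1 day, for 1 week and for 3 weeks. There were 4 libraries for each diet and time (6 groups, 24 libraries), with totals of 1.99 to 16.3 M miRNA counts (M, mega). The labels give no strain, sex, age, genotype or batch. They also do not state whether each library had its own mouse, and the spread behind every p-value is that among libraries, which could be technical. The series title concerns lower DICER, the enzyme that releases miRNAs from hairpins, in adipose tissue under high-fat feeding. The comparisons made here ask whether the level of the cluster, and the share of its arms, differed between diets and over the time of feeding.

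The cluster's primary transcript, the host gene Mir17hg, is induced by Myc and E2F factors in dividing cells, and Drosha and DICER cut the arms out of it. miR-17 and miR-20a repress cell-cycle and apoptosis genes such as Cdkn1a and Bcl2l11, and the cluster is known for its part in the growth and survival of lymphocytes. In cultured mouse preadipocytes the cluster has been reported to speed differentiation by repressing Rbl2, and miR-92a restrains the sprouting of blood vessels. Mammals carry related clusters, miR-106a to miR-363 on the X chromosome and miR-106b-25 in the gene Mcm7, whose arms share seeds with it (the seed is the stretch of bases 2 to 8 that pairs with target messenger RNAs).

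The 6 hairpins lay on the plus strand at chr14:115043671-115044506, a stretch of 836 bases inside Mir17hg, which the GENCODE M21 annotation places at chr14:115042879-115046727. All 10 arms had a mature sequence in RefSeq's table for GRCm38.p6, the assembly also called mm10, and all were exonic to Mir17hg. The sequences below are those of the arms on which the results turn, written 5′ to 3′ with the seed in capitals, first in the cluster and then in the related clusters.
miR-17-5p: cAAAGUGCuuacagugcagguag
miR-20a-5p: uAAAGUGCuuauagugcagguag
miR-18a-5p: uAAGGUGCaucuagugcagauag
miR-19a-3p: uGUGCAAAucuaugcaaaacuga
miR-19b-3p: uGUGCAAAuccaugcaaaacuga
miR-92a-3p: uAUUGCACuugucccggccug
miR-17-3p: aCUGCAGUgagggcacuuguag
miR-20a-3p: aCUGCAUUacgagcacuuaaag
miR-106a-5p: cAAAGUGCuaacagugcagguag
miR-20b-5p: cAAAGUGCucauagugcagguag
miR-93-5p: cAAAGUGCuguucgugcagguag
miR-363-3p: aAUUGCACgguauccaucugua
miR-25-3p: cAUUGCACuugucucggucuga

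miR-17-5p and miR-20a-5p shared the seed AAAGUGC and differed by 2 substitutions, C1U and C12U, counted from the 5′ end with the base of miR-17-5p first. miR-17-5p and miR-106a-5p of the X chromosome differed by U10A alone, so reads of these near-identical arms are told apart by few bases. miR-19a-3p and miR-19b-3p differed by U11C. The mature sequences of miR-19b-3p and miR-92a-3p are also made from hairpins at chrX:52741983-52742066 and chrX:52741838-52741928 on the minus strand. Their counts therefore cannot be assigned to the chromosome 14 cluster alone. How reads with more than 1 genomic match were counted was not stated in the sources used, and that choice bears on these arms first. The hairpin of miR-17 is shown with its arms in capitals because the ratio of these arms is tested further on.
miR-17 hairpin, chr14:115043671-115043754: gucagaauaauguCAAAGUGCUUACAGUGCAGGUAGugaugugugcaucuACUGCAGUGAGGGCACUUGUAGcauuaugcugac

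The tissue label was checked against marker miRNAs. The 6 adipocyte-enriched miRNAs miR-148a-3p, miR-148a-5p, miR-143-3p, miR-103-3p, miR-378a-3p and miR-193b-3p together made 227953 to 454801 CPM (counts scaled to a common library size with TMM factors) in every library. Endothelial miR-126a-3p lay at 51948 to 118862 CPM, while its other arm miR-126a-5p was listed at 0 in all libraries. The 10 leukocyte miRNAs summed to 5446 to 52211 CPM, and none was at 0 throughout a group. Libraries 1 and 3 of the high-fat week 1 group and library 1 of the control week 3 group stood apart with 6431, 6002 and 5446 CPM of these leukocyte miRNAs, the 3 lowest sums. Muscle miRNAs ranged from 24.04 to 80427 CPM and were highest in library 2 of the high-fat week 1 group. In bulk tissue, fewer cells of a type and less of an RNA per cell cannot be told apart.

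The cluster made up 0.334% to 0.918% of a library's counts, and all 10 arms passed the filter on low counts that left 558 miRNAs to test. miR-92a-3p (mmu-miR-92a-3p in the table, where every name has the prefix of the mouse) led with a mean of 3759 CPM over the 24 libraries and 57.3% to 75.4% of the cluster's counts. It was followed by mmu-miR-20a-5p with a mean of 844 CPM, mmu-miR-17-5p with 638 CPM and mmu-miR-19a-3p with 231 CPM. The order of these 4 arms was the same in all 24 libraries. miR-17-3p averaged 40.3 CPM and miR-18a-5p 30.1 CPM, and the first of these was the higher in 22 of 24 libraries. miR-19b-3p averaged 10.1 CPM, miR-92a-1-5p 7.77 CPM, miR-18a-3p 7.31 CPM and miR-20a-3p 2.86 CPM. Among these low arms miR-92a-1-5p exceeded miR-18a-3p in 12 of 24 libraries, so neither was regularly the higher. miR-19b-3p exceeded miR-92a-1-5p in 19 of 24, with a mean log2 ratio of 0.52 ± 0.71 (SD). miR-20a-3p lay below miR-18a-3p in all 24 libraries, and its counts ran from 4 to 35 per library. CPM counts whole reads, and the arms are 21 to 23 bases long, so no scaling by length was made. The other arms of the miR-19 hairpins were near the limit of detection, with a mean of 0.904 CPM for miR-19a-5p, which did not pass the filter, and 1.81 CPM for miR-19b-1-5p.

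miR-19b-3p was far below miR-19a-3p although they differ by the substitution U11C and miR-19b-3p has a second locus. The median log2 ratio of miR-19b-3p to miR-19a-3p was −4.53, and it stayed between −5.23 and −3.68 over the 24 libraries. The gap was thus larger than the spread between libraries in every group. miR-92a-3p, which also has a second locus, was the highest arm with a mean of 3759 CPM. The counting of multiply matching reads was not stated, so a lower level of miR-19b-3p and uncounted reads cannot be told apart.

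Set beside other miRNAs with the same seed, miR-19a-3p and miR-19b-3p were the only names with the GUGCAAA seed among 1679 names with a sequence, and part of the miR-19b-3p counts may come from its locus on the X chromosome. miR-18a-5p made a median of 93.98% of the counts with the AAGGUGC seed (86.6% to 100%), the rest coming from miR-18b-5p. For AAAGUGC, shared by 7 names, miR-17-5p and miR-20a-5p together made a median of 47.8% of the counts (41.1% to 51.9%). For AUUGCAC, shared by 6 names, miR-92a-3p made a median of 51.1% (44.2% to 59.2%). The remainder of these seed families came chiefly from the miR-106b-25 arms miR-93-5p with a mean of 1117 CPM, miR-106b-5p with 425 CPM and miR-25-3p with 2589 CPM. The X-linked arms were sparser, with means of 70.8 CPM for miR-20b-5p, 54.3 CPM for miR-363-3p and 33.8 CPM for miR-106a-5p. The AUUGCAC counts also include miR-92b-3p, miR-32-5p and miR-367-3p, which lie outside these clusters and whose levels are not given here.

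**Figure D1:**
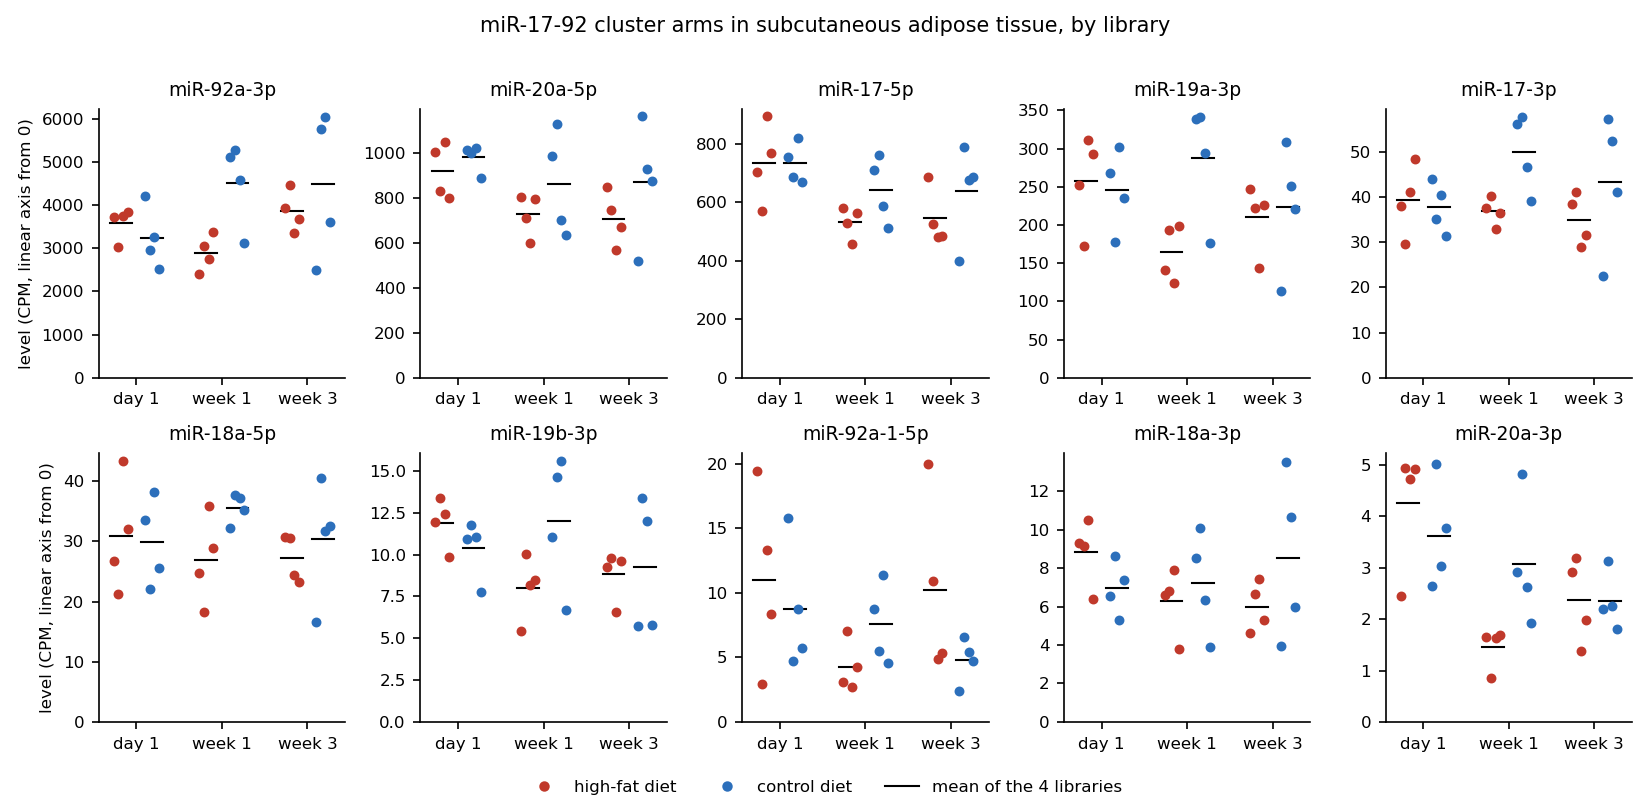
Level of each of the 10 cluster arms in CPM (vertical axes, linear and starting at 0, a scale of its own per arm) by time of feeding, with 1 point per library, red for the high-fat and blue for the control diet, and a black line at the mean of 4 libraries. At week 1 the high-fat points of miR-92a-3p lie between 2397 and 3368 CPM and the control points between 3111 and 5281 CPM.

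After 1 day of feeding the diets did not separate the cluster. miR-92a-3p had 3725, 3030, 3745 and 3831 CPM in the high-fat libraries, against 4209, 2953, 3261 and 2511 CPM in the control libraries. The high-fat values fell within the control range. miR-17-5p, a repressor of cell-cycle inhibitors, averaged 735 ± 135 CPM on the high-fat diet and 733 ± 67.5 CPM on the control diet (SD, n = 4 each). miR-20a-5p, its seed partner, averaged 919 ± 123 CPM in high-fat libraries and 979 ± 62.9 CPM in control libraries. miR-19a-3p averaged 257 ± 61.8 CPM on the high-fat diet and 246 ± 52.8 CPM on the control diet. These differences were smaller than the SD of the groups. Over the 10 arms, 9 had a higher and 1 a lower estimate on the high-fat diet, with a median log2 fold change of 0.11, against −0.01 over the 558 miRNAs tested, of which 51.6% had an estimate below 0. None of the 10 arms, and 0% of the 558 miRNAs, passed an adjusted p of 0.05 (edgeR's quasi-likelihood test with Benjamini-Hochberg adjustment). Lower on the high-fat diet with an unadjusted p under 0.05 were 1.79% of the 558, and higher 1.25%, none of them in the cluster, and DESeq2 called 0.

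After 1 week all 10 arms had lower estimates on the high-fat diet, and none passed the adjusted threshold. The abundant arm miR-92a-3p had 2397, 3056, 2745 and 3368 CPM in the high-fat libraries, against 5103, 5281, 4570 and 3111 CPM in the control libraries. Only library 4 of the control group fell within the high-fat range. The log2 fold change of miR-92a-3p was −0.64 ± 0.23 (SE), with an unadjusted edgeR p of 0.00957 and an adjusted p of 0.225.

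miR-19a-3p had 141, 194, 124 and 199 CPM in the high-fat week 1 libraries, against 339, 341, 295 and 176 CPM in the control week 1 libraries. Library 4 of the control diet was again the only control value within the high-fat range. Its log2 fold change was −0.81 ± 0.28 (SE), with an unadjusted edgeR p of 0.0081 and an adjusted p of 0.225. miR-20a-3p, the minor arm of the miR-20a hairpin, had 1.65, 0.853, 1.63 and 1.70 CPM on the high-fat diet, against 2.91, 4.83, 2.63 and 1.92 CPM on the control diet. Every high-fat value lay below every control value, but they rested on 4 to 7 counts in each high-fat library. Its log2 fold change was −1.08 ± 0.38 (SE), with an unadjusted edgeR p of 0.0102 and an adjusted p of 0.225.

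miR-20a-3p was the only arm of the 10 whose groups did not overlap at week 1, lower on the high-fat diet, as were 1.97% of all miRNAs tested. By an unadjusted p under 0.05, 3 of the 10 arms were lower, against 9.14% of all miRNAs tested. The median log2 fold change of the 10 arms was −0.51, against −0.02 over all 558, and 51.4% of these had an estimate below 0. The arms come from 1 transcript and the same libraries, so their shared direction is not 10 independent observations. By the adjusted p, 0% of the 558 miRNAs passed at week 1, 79 had an unadjusted p under 0.05, and DESeq2 called 0 and limma-voom 17.

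The other arms had smaller or less certain differences at week 1. miR-17-5p averaged 533 ± 54.2 CPM in high-fat libraries and 643 ± 115 CPM in control libraries, a log2 fold change of −0.27 ± 0.19 (SE). miR-20a-5p averaged 727 ± 94.7 CPM on the high-fat diet and 862 ± 235 CPM on the control diet. Both differences were smaller than the SD of the control libraries. Leaving out 1 library at a time moved the log2 fold change between −0.32 and −0.10 for miR-17-5p and between −0.32 and −0.01 for miR-20a-5p, in each case nearest to 0 without library 2 of the control week 1 group. miR-17-3p averaged 36.8 ± 3.05 CPM on the high-fat diet and 49.95 ± 8.67 CPM on the control diet. miR-18a-5p, which represses Ctgf, averaged 27.0 ± 7.37 CPM on the high-fat diet and 35.6 ± 2.49 CPM on the control diet. miR-19b-3p averaged 8.02 ± 1.91 CPM in high-fat and 12.0 ± 4.03 CPM in control libraries. miR-92a-1-5p averaged 4.27 ± 1.96 CPM on the high-fat diet and 7.56 ± 3.11 CPM on the control diet. For miR-18a-3p the means were 6.28 ± 1.74 CPM in high-fat and 7.22 ± 2.69 CPM in control libraries, the smallest estimate of the 10 at −0.16 ± 0.34 (SE).

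Leukocyte miRNAs moved with the cluster at week 1. Of the 10 leukocyte miRNAs, 8 had lower estimates on the high-fat diet, with a median log2 fold change of −1.31, and none passed the adjusted edgeR threshold. Their sum was 6002 to 21893 CPM in the high-fat libraries, against 11802 to 50575 CPM in the control libraries. Without the 3 libraries with the lowest leukocyte sums, of which 2 belonged to the high-fat week 1 group, all 10 arms were still lower and their median log2 fold change was −0.25. With the mean log2 level of the leukocyte miRNAs as a covariate in the fit, 6 of the 10 arms were lower and the median was −0.05. The value of miR-19a-3p was −0.43 without those libraries and −0.16 with the covariate, and that of miR-92a-3p −0.37 and −0.11. The covariate was itself lower on average on the high-fat diet and was chosen after seeing the data. Its fit therefore cannot fully separate leukocyte level from diet, and no other marker list was used as a covariate.

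Other markers differed at week 1 too. The 6 adipocyte-enriched miRNAs summed to 239440 to 338229 CPM in high-fat and 246320 to 351411 CPM in control libraries, with a median log2 fold change of −0.19. Muscle miRNAs summed to 130 to 80427 CPM on the high-fat diet and 539 to 18459 CPM on the control diet, and without the 3 libraries highest in them the cluster's median log2 fold change was −0.69. The 7 epithelial miRNAs summed to 8761 to 39056 CPM in high-fat and 12758 to 16416 CPM in control libraries, and the 4 erythrocyte miRNAs to 2213 to 2655 CPM in high-fat and 1586 to 2302 CPM in control libraries. Library totals at week 1 were 2.54 to 4.15 M counts on the high-fat diet and 5.32 to 16.3 M on the control diet. The part of the epithelial and erythrocyte markers and of the library totals in the result was not tested.

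At week 1 the arms miR-19a-3p and miR-92a-3p passed the threshold under some other settings. No arm did with RLE size factors, library totals alone, DESeq2 or no filter on low counts. Nor did any with a mean CPM of at least 10, only the groups compared or a replicate block. Under these, the adjusted p of miR-19a-3p ran from 0.202 (DESeq2) to 0.527 (edgeR without a filter). With limma-voom and sample quality weights, miR-19a-3p (log2 fold change −0.98) and miR-92a-3p (−0.76) passed with an adjusted p of 0.0419 each. That setting, which was not planned, called 17 of all miRNAs tested. Without library 4 of the control week 1 group, which had the lowest leukocyte sum of that group, miR-19a-3p passed at −0.93 with an adjusted edgeR p of 0.0496. In that fit 22 of all miRNAs tested were called. miR-19a-3p also passed without the 3 libraries highest in muscle miRNAs, at −1.07 with an adjusted edgeR p of 0.0482. That setting, also not planned, called 31 of all miRNAs tested.

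**Figure D2:**
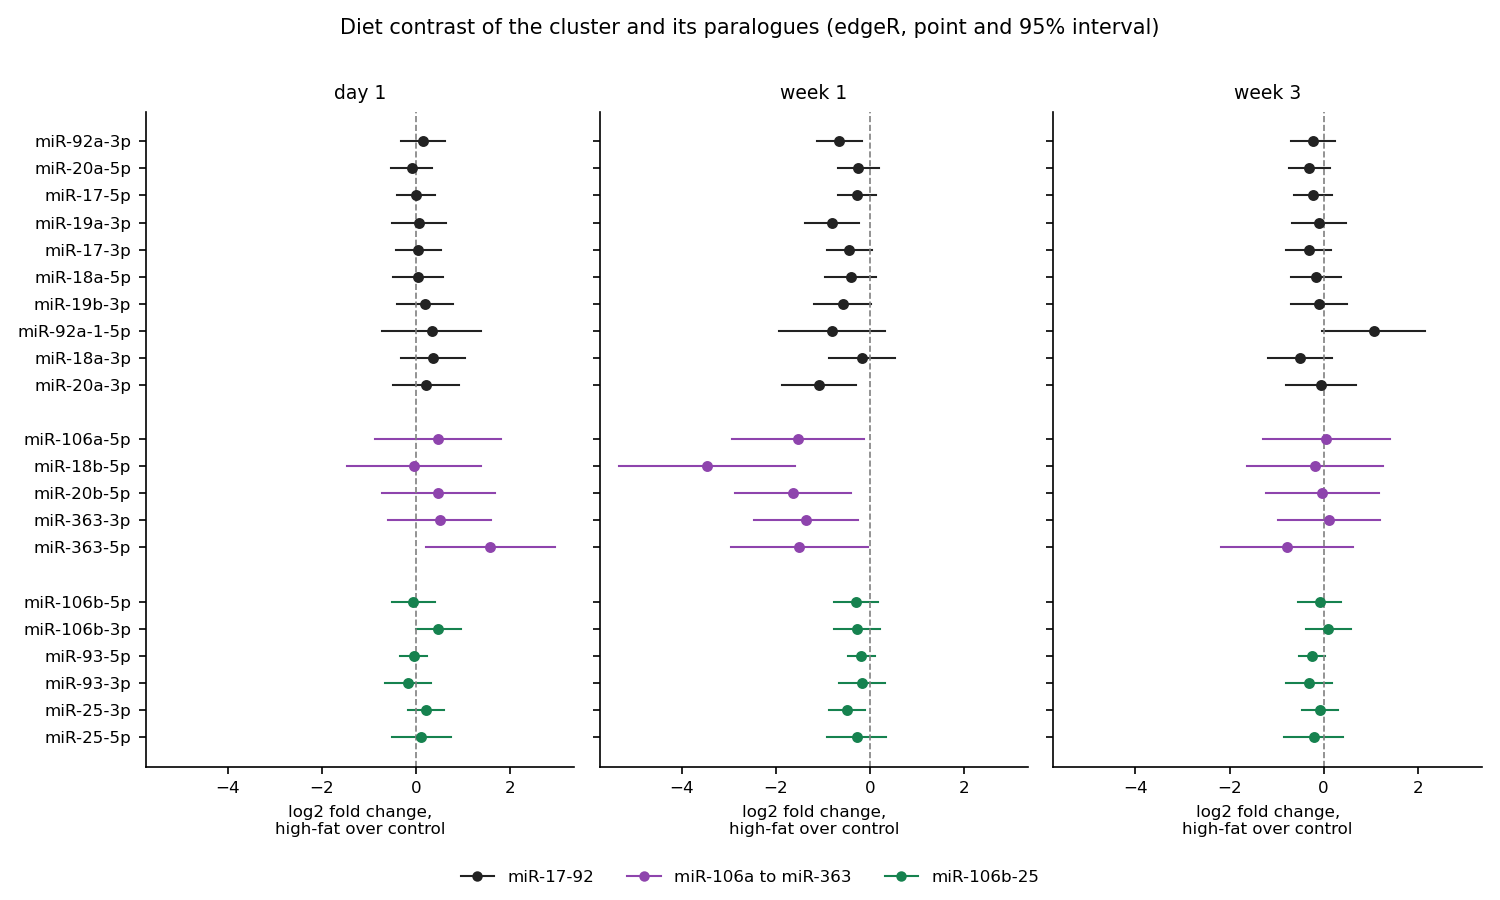
Log2 fold change of high-fat over control (horizontal axis) for the 10 cluster arms in black, the 5 tested miR-106a to miR-363 arms in purple and the 6 miR-106b-25 arms in green, at each time, with edgeR's estimate as a point and its 95% interval as a line. At week 1 all points lie left of 0, the purple ones farthest, between −3.46 and −1.36.

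After 3 weeks 9 of the 10 arms again had lower estimates on the high-fat diet, with a median log2 fold change of −0.19, against −0.05 over all miRNAs, of which 58.1% were below 0. miR-92a-3p had 3920, 4470, 3356 and 3674 CPM in high-fat libraries, against 2492, 5758, 6043 and 3614 CPM in control libraries. The control libraries enclosed the high-fat range. miR-17-5p averaged 545 ± 96.01 CPM on the high-fat diet and 638 ± 167 CPM on the control diet, and miR-20a-5p 707 ± 117 CPM in high-fat and 871 ± 265 CPM in control libraries. miR-19a-3p averaged 210 ± 45.3 CPM on the high-fat diet and 224 ± 81.6 CPM on the control diet. Library 1 of the control group, with the lowest leukocyte sum of all 24 libraries, held the lowest level of miR-17-5p, miR-17-3p, miR-18a-5p, miR-19a-3p, miR-20a-5p and miR-92a-1-5p in the series.

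The exception at week 3 was miR-92a-1-5p, the minor arm of the miR-92a hairpin on chromosome 14, which unlike miR-92a-3p has no second locus. It had 19.97, 10.9, 4.84 and 5.30 CPM in high-fat libraries, against 2.42, 6.55, 5.38 and 4.73 CPM in control libraries. The groups overlapped, and the high-fat mean rested on libraries 1 and 2. Its log2 fold change was 1.07 ± 0.53 (SE), with an unadjusted edgeR p of 0.0547 and an adjusted p of 0.999. None of the 10 arms and 0% of all miRNAs passed the adjusted threshold at week 3. By an unadjusted p under 0.05, 1.25% of all miRNAs were lower and 0.538% higher on the high-fat diet, none of them in the cluster, and DESeq2 called 0.

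The diet contrast was not shown to differ between the times. In the joint edgeR test of the diet by time interaction 0% of the 558 miRNAs passed (41 had an unadjusted p under 0.05, and DESeq2 called 0), and the lowest unadjusted p in the cluster was 0.0513 for miR-20a-3p, with an adjusted p of 0.567. Averaged over the 3 times, 9 of 10 arms were lower on the high-fat diet, with a median log2 fold change of −0.19, against −0.04 over all miRNAs, and again 0% passed (18 had an unadjusted p under 0.05, and DESeq2 called 0).

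The related clusters had the same direction at week 1. Of the 10 miR-106a to miR-363 arms, 5 passed the filter on low counts, and all 5 had lower estimates on the high-fat diet at week 1, with a median log2 fold change of −1.53. All 5 had an unadjusted p under 0.05 and none an adjusted p under 0.05. miR-20b-5p, the X-linked arm closest to miR-20a-5p, had 11.3, 50.3, 11.7 and 44.9 CPM in high-fat libraries, against 99.4, 141, 95.9 and 28.4 CPM in control libraries. The groups overlapped through library 4 of the control diet, and its log2 fold change was −1.63 ± 0.60 (SE), with an adjusted edgeR p of 0.225. miR-18b-5p, which shares its seed with miR-18a-5p, had 0, 0.640, 0 and 0.848 CPM in high-fat libraries, from 0, 3, 0 and 2 counts. In control libraries it had 4.99, 5.11, 4.27 and 1.61 CPM, from 24, 37, 39 and 26 counts. The adjusted edgeR p of miR-18b-5p was 0.225. Its fitted fold change rests on few counts, since 2 high-fat libraries were at 0. miR-363-3p, with the miR-92a seed, had a log2 fold change of −1.36 ± 0.54 (SE) and an adjusted edgeR p of 0.242. The 5 that did not pass the filter had means of 0.0208 to 0.865 CPM.

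In the miR-106b-25 cluster all 6 arms had lower estimates at week 1, with a median log2 fold change of −0.27. The lowest p belonged to miR-25-3p, the seed partner of miR-92a-3p, at −0.48 ± 0.19 (SE), with an adjusted edgeR p of 0.225. At day 1 the medians were 0.48 for the miR-106a to miR-363 arms and 0.03 for the miR-106b-25 arms, and at week 3 −0.03 and −0.15. The comparisons of cluster and paralogue share all libraries, and the difference between clusters at week 1 was not tested.

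Over time the diets were set against day 1 within each diet, and these comparisons share the day 1 libraries. On the high-fat diet all 10 arms had lower estimates at week 1 than at day 1, with a median log2 fold change of −0.48, against 0.08 over all miRNAs, of which 43.7% were below 0. miR-20a-3p had 1.65, 0.853, 1.63 and 1.70 CPM at week 1, against 2.45, 4.95, 4.72 and 4.93 CPM at day 1. The times did not overlap for this arm alone among the 10, in the lower direction, as for 5.73% of all miRNAs tested. Its log2 fold change was −1.54 ± 0.39 (SE), with an unadjusted edgeR p of 0.000693 and an adjusted p of 0.128. By an unadjusted edgeR p, miR-92a-1-5p at −1.38 ± 0.55 (SE), miR-19a-3p at −0.65 ± 0.28 (SE) and miR-17-5p at −0.46 ± 0.19 (SE) were also under 0.05, 4 of 10 arms in all, against 9.5% of all miRNAs that were lower with an unadjusted p under 0.05. By the adjusted p, 0% passed; 115 miRNAs had an unadjusted p under 0.05, and DESeq2 called 32 miRNAs, none in the cluster. Leukocyte miRNAs summed to 6002 to 21893 CPM in high-fat libraries at week 1, against 23974 to 52211 CPM at day 1, without overlap. With their mean level as a covariate, 4 of the 10 arms were lower and the median was 0.05. Since the leukocyte sums of these times did not overlap, that fit cannot separate leukocyte level from time.

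At week 3 on the high-fat diet, 9 of 10 arms were lower than at day 1, with a median log2 fold change of −0.34, where 49.1% of all miRNAs were lower, and 2 had an unadjusted edgeR p under 0.05 (miR-17-5p at −0.43 ± 0.19 and miR-20a-3p at −0.87 ± 0.36, SE), against 6.27% of all miRNAs that were lower with such a p. miR-19b-3p was the only arm whose times did not overlap, with 9.25, 9.82, 6.56 and 9.61 CPM at week 3, against 11.9, 13.4, 12.4 and 9.86 CPM at day 1; 4.3% of all miRNAs were lower without overlap. None of the arms and 0% of all miRNAs passed the adjusted edgeR threshold, 88 miRNAs had an unadjusted p under 0.05, and DESeq2 called 11, none in the cluster. Leukocyte miRNAs summed to 14248 to 29021 CPM in high-fat libraries at week 3, against 23974 to 52211 CPM at day 1. With their mean level as a covariate, 7 of the 10 arms were lower and the median was −0.16.

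On the control diet the cluster's arms were divided. At week 1, 6 were higher and 4 lower than at day 1, where 39.6% of all miRNAs were lower, and miR-92a-3p had 5103, 5281, 4570 and 3111 CPM, against 4209, 2953, 3261 and 2511 CPM at day 1. Its log2 fold change was 0.48 ± 0.23 (SE), with an unadjusted edgeR p of 0.0449 and an adjusted p of 0.352. It was the only arm with an unadjusted p under 0.05, against 7.35% of all miRNAs that were higher with such a p. None of the 10 arms and 0.179% of all miRNAs passed the adjusted threshold in that comparison. At week 3, 4 arms were higher and 6 lower than at day 1, where 43.2% of all miRNAs were lower, with miR-92a-3p at 0.47 ± 0.23 (SE) and an adjusted p of 0.33 by edgeR. None of the 10 arms passed, against 0.358% of all miRNAs.

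Ratios of arms within a library do not depend on library scaling. The log2 ratio of each arm to its partner or paralogue was taken from the counts (0.5 counts added), and 13 ratios were tested for diet and for each later time against day 1 with exact two-sided permutation tests stratified by time or diet, 39 tests in all. The arm ratios of a hairpin were planned. The ratios between hairpins and paralogues were chosen after the levels and time contrasts had been seen, so their tests describe a pattern found in the same data.

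miR-17-3p gained on miR-17-5p with time in both diets. In high-fat libraries its log2 ratio to miR-17-5p was −3.95, −3.71, −3.79 and −3.94 at week 1, against −4.21, −4.26, −4.45 and −3.98 at day 1. In control libraries it was −3.66, −3.72, −3.65 and −3.70 at week 1, against −4.10, −4.29, −4.33 and −4.41 at day 1. Week 1 lay above day 1 without overlap in each diet. The difference was 0.49 over both diets, with an exact permutation p of 0.000408, the smallest that 4900 regroupings give, and 0.0159 after adjustment over the 39 tests. At week 3 the ratio averaged −3.96 ± 0.21 in high-fat and −3.92 ± 0.22 in control libraries (SD, n = 4 each), 0.32 above day 1 with an exact permutation p of 0.0049 and 0.0382 after adjustment. That later call was lost in 12 of 16 fits without 1 library, while the week 1 call held in all 16.

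Among the 167 hairpins with both arms tested, the same ratio changed from day 1 to week 1 with an adjusted p under 0.05 for 15 (8.98%) and with an unadjusted p under 0.05 for 22.8%. Adjusted over those 167 hairpins, the exact permutation p of miR-17 was 0.0273 at week 1 and 0.0682 at week 3, where 4.19% of hairpins passed. In the related clusters, the 3p to 5p ratio of miR-106b was also higher, by 0.40 at week 1 and 0.56 at week 3. Its exact permutation p were 0.04 and 0.00327, and 0.196 and 0.0682 after that adjustment. At week 1 and week 3 miR-93 differed by 0.27 and 0.02, miR-25 by 0.02 and 0.13, and miR-363 by −0.67 and −0.06. The 5p arm of miR-17 remained its major product throughout: miR-17-3p made up a median of 6.01% of the pair. The diets did not separate the ratio, with a difference of −0.05 and an exact permutation p of 0.486; 0% of the 167 hairpins passed for diet.

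Of the cluster's other hairpins with an arm ratio, none passed the adjusted threshold. The log2 ratio of miR-20a-3p to miR-20a-5p differed by −0.58 between week 1 and day 1, with an exact permutation p of 0.0494 and 0.161 after adjustment. For miR-92a-1-5p to miR-92a-3p, where the 5p arm is on top, the difference was −0.73 (p = 0.0416 by exact permutation, 0.148 adjusted), so the estimate of the 3p arm was higher there, as for miR-17. For miR-18a-3p to miR-18a-5p it was −0.31 (p = 0.288 by exact permutation, 0.535 adjusted).

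miR-92a-3p gained on miR-17-5p by week 3. The log2 ratio was 2.51, 3.09, 2.80 and 2.92 in high-fat libraries at week 3, against 2.40, 2.41, 2.06 and 2.32 at day 1. In control libraries it was 2.64, 2.87, 3.16 and 2.39 at week 3, against 2.48, 2.10, 1.99 and 1.90 at day 1. The times overlapped in the control diet through library 4 at week 3, and they did not in the high-fat diet. The difference of 0.59 had an exact permutation p of 0.000816 and 0.0159 after adjustment. At week 1 it was 0.41, with 0.0098 and 0.0637. As this ratio was chosen after the time contrasts had been seen, its p-values describe the pattern and are no independent test. No share over other pairs of miRNAs was computed. Without library 1 of the high-fat week 1 group the difference was 0.47, with an adjusted exact permutation p of 0.00531. That adjustment covered only the tests that use this library, not all 39, so 0.00531 and 0.0637 are not like for like. miR-92a-3p carries the second locus on the X chromosome, and against miR-363-3p of that locus it was 0.79 higher at week 1 and 0.47 higher at week 3, each with an adjusted p of 0.148 by exact permutation.

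miR-17-5p fell against its seed partner miR-93-5p. Their log2 ratio averaged −0.97 ± 0.15 in high-fat and −0.88 ± 0.15 in control libraries at week 1, and −0.92 ± 0.14 in high-fat and −0.95 ± 0.19 in control libraries at week 3, against −0.61 ± 0.19 in high-fat and −0.65 ± 0.09 in control libraries at day 1 (SD, n = 4 each). The differences to day 1 were −0.30 at week 1 and −0.31 at week 3, with exact permutation p of 0.00245 and 0.00163, and 0.0239 and 0.0212 after adjustment. The week 1 call was lost in 5 of 16 fits without 1 library. This ratio, too, was chosen after the time contrasts had been seen, so its p-values are no independent test. The mean sum of muscle miRNAs was also higher at the later times. It was 23538 CPM in high-fat and 7569 CPM in control libraries at week 1. At week 3 it was 8786 CPM in high-fat and 5246 CPM in control libraries, against 1303 CPM and 879 CPM at day 1. Within groups the sums varied widely: high-fat week 1 libraries 1 to 4 had 1187, 80427, 12409 and 130 CPM. Their log2 ratios of miR-17-5p to miR-93-5p were −0.88, −0.81, −1.14 and −1.03, in the same order. Over all 24 libraries the level of miR-17-5p had a Pearson r of −0.54 with the muscle miRNAs, and −0.38 after subtraction of group means. The part of muscle miRNAs in the ratios was not tested. As a share, miR-17-5p and miR-20a-5p made 44.9% ± 1.20 of the AAAGUGC seed counts in high-fat and 45.9% ± 2.30 in control libraries at week 3, against 49.5% ± 1.53 in high-fat and 50.3% ± 1.06 in control libraries at day 1 (SD, n = 4 each). None of the 13 ratios differed by diet after adjustment, and the lowest adjusted exact permutation p for diet was 0.372, for miR-92a-3p to miR-25-3p. That test averages over the 3 times, and the order of the diet means was not the same at each. The log2 ratio of miR-20a-5p to miR-20b-5p averaged 3.28 ± 0.50 in high-fat and 3.87 ± 0.51 in control libraries at day 1, 4.94 ± 1.14 in high-fat and 3.41 ± 0.73 in control libraries at week 1, and 3.47 ± 0.46 in high-fat and 4.04 ± 1.04 in control libraries at week 3 (SD, n = 4 each). For miR-17-5p to miR-106a-5p the means were 4.07 in high-fat and 4.63 in control libraries at day 1, 5.61 in high-fat and 4.08 in control libraries at week 1, and 4.13 in high-fat and 4.74 in control libraries at week 3. The ratio of miR-92a-3p to miR-363-3p had the same signs, higher in high-fat libraries at week 1 and higher in control libraries at the other times. No ratio was tested for diet at a single time. The labels give no batch or date, so time of feeding and whatever was handled together with it cannot be told apart.

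**Figure D3:**
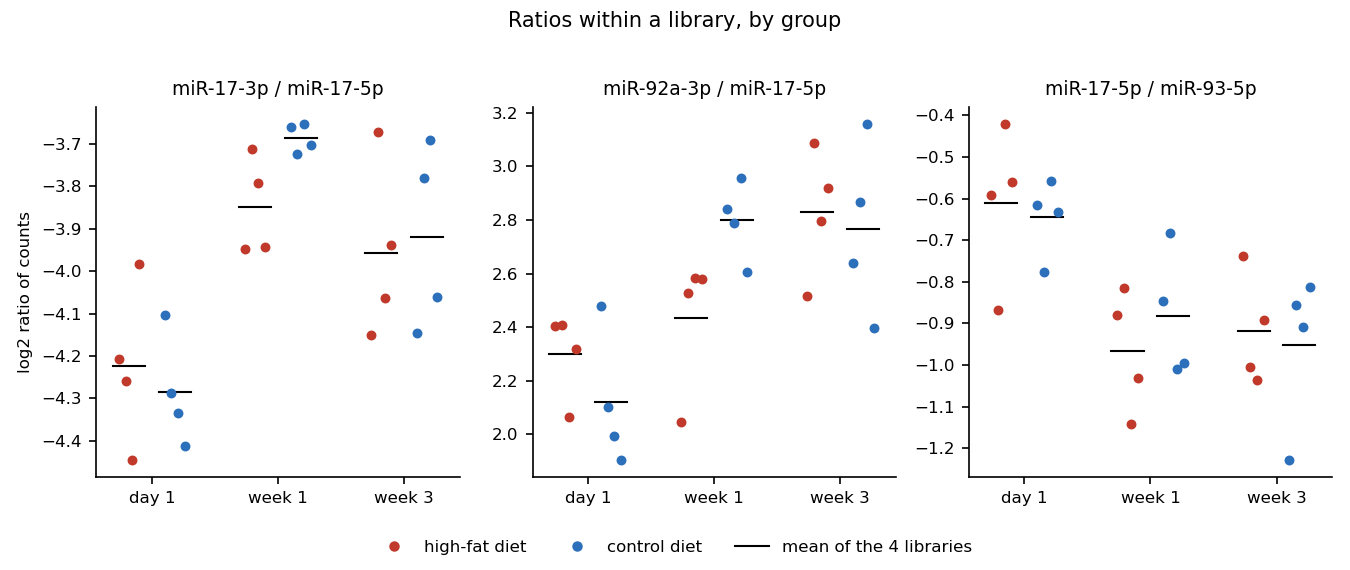
Log2 ratio of counts within a library (vertical axes, a range of its own per panel) by time of feeding, with 1 point per library, red for the high-fat and blue for the control diet, and a black line at the mean of 4 libraries. The ratio of miR-17-3p to miR-17-5p lies above its day 1 values at week 1 in each diet, and the ratio of miR-17-5p to miR-93-5p averages −0.97 in high-fat and −0.88 in control libraries there.

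The arms varied together across libraries. Over the 45 pairs of arms the median Pearson r of log2 CPM was 0.55 (0.12 to 0.92, 24 libraries), and after subtraction of group means the median was 0.56. The closest pair was miR-17-5p with miR-20a-5p (r = 0.92) and the loosest miR-18a-3p with miR-92a-1-5p (r = 0.12), which are low arms with more counting error. These correlations share libraries and depth and are given as a description.

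The miRNAs most like the cluster were sought among the other 548 tested, by Pearson r with the mean log2 CPM of the 8 arms that have no second locus. The 5 closest were miR-16-2-3p (r = 0.94), miR-15b-5p (0.90), miR-130b-3p (0.89), miR-16-5p (0.88) and miR-342-3p (0.88). Spearman's rho for these 5 was 0.85 to 0.95, r after subtraction of group means was 0.84 to 0.91, r without the 2 libraries farthest from the median was 0.83 to 0.91, and r without the 3 libraries lowest in leukocyte miRNAs was 0.81 to 0.90. The median r over all 548 was −0.07. miR-342-3p is 1 of the 10 leukocyte miRNAs, and next in order came leukocyte miR-146a-5p (0.86) and miR-142a-3p (0.85) and X-linked miR-20b-5p (0.85). Leukocyte miR-155-5p, miR-142a-5p, miR-150-5p, miR-150-3p and miR-342-5p had r of 0.72 to 0.84. By contrast, r was 0.42 for leukocyte miR-223-5p and 0.12 for leukocyte miR-223-3p, so not every leukocyte miRNA varied closely with the cluster.

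Against the mean log2 level of the 10 leukocyte miRNAs, miR-19a-3p had the highest correlation (r = 0.92, rho = 0.92). The lowest were those of miR-18a-5p (r = 0.44, rho = 0.50) and miR-18a-3p (r = 0.46, rho = 0.47), and after subtraction of group means that of miR-20a-3p (r = 0.18). miR-92a-3p had r = 0.79 and rho = 0.83, and miR-17-5p r = 0.73 and rho = 0.77. Without the 2 libraries farthest from the median of the leukocyte mean, r was 0.86 for miR-19a-3p, 0.76 for miR-92a-3p and 0.59 for miR-17-5p. After subtraction of group means, r was 0.91 for miR-19a-3p, 0.91 for miR-92a-3p and 0.75 for miR-17-5p. Against the adipocyte-enriched miRNAs r was 0.07 for miR-19a-3p, −0.23 for miR-92a-3p and 0.10 for miR-17-5p. Against the muscle miRNAs r was −0.54 for miR-17-5p, −0.56 for miR-20a-5p, −0.55 for miR-20a-3p and −0.02 for miR-92a-3p, and after subtraction of group means −0.38, −0.45, −0.43 and −0.24 for the same arms.

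**Figure D4:**
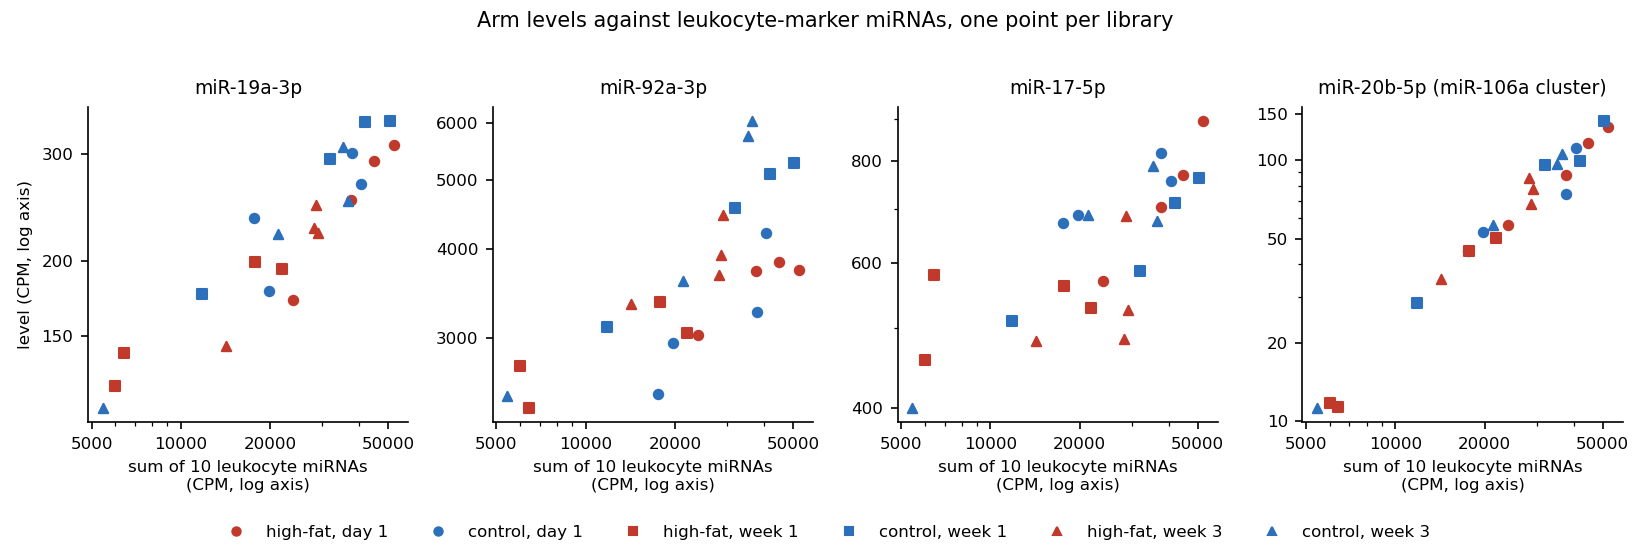
Level of miR-19a-3p, miR-92a-3p, miR-17-5p and the X-linked miR-20b-5p (vertical axes, CPM on a log scale) against the summed level of 10 leukocyte miRNAs (horizontal axes, CPM on a log scale), 1 point per library, red for the high-fat and blue for the control diet, with circles, squares and triangles for day 1, week 1 and week 3. The 3 libraries at the left, with 5446 to 6431 CPM of leukocyte miRNAs, hold the 3 lowest levels of miR-19a-3p and miR-20b-5p.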

How the data were processed

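Small RNA libraries were made from 1 μg of total RNA with a NEBNext kit, per the labels' protocols. The deposited values are whole-number counts per mature miRNA, which the authors made with FastQC, Trim Galore, Bowtie2 and featureCounts on mm10, per the submitters' processing notes; settings, versions and the handling of multiply matching reads were not stated there. From the counts, 558 of 1907 names passed edgeR's filter (min.count 10, min.total.count 15), and the other 1349 held 0.0179% of counts. edgeR 4.0.16 in R 4.3.3 fitted all 6 groups in one quasi-likelihood model with TMM factors and Benjamini-Hochberg adjustment over the 558, with an adjusted p of 0.05 as the threshold. The script was tested on simulated data. The median library held 5.30 M (mega) counts. Likeness was ranked by Pearson r, and the 5 closest miRNAs were named. DESeq2 1.42.0, limma 3.58.1, other scalings, filters and left-out libraries were alternatives. The members, marker lists and paralogue lists were chosen with earlier results of these data known. Replicate numbers did not pair samples: same-numbered libraries had deviations correlated at −0.64 to 0.55, over 0.1 in 21 of 60 pairs.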

Additional observations from a re-analysis of the deposited data

Results flagged for a closer look

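Among 138 groups of 4 values (60 of arm levels and 78 of ratios), 6 held 1 library whose gap to the nearest other exceeded Dixon's 95% critical share of the group's range, and chance alone marks about 1 group in 20. miR-20a-3p had 2.45 CPM in library 1 of the high-fat day 1 group, where the others had 4.72 to 4.95 CPM. It had 0.853 CPM in library 2 of the high-fat week 1 group, where the others had 1.63 to 1.70 CPM, and that value rests on 4 counts. miR-92a-3p had 3030 CPM in library 2 of the high-fat day 1 group, below the 3725 to 3831 CPM of the others. The log2 ratio of miR-92a-3p to miR-17-5p was 2.05 in library 1 of the high-fat week 1 group, against 2.53 to 2.58 in the others. The log2 ratio of miR-19a-3p to miR-17-5p was −1.95 in library 2 of the control day 1 group, against −1.51 to −1.44 in the others. The log2 ratio of miR-92a-3p to miR-25-3p was 0.29 in library 3 of the control day 1 group, against 0.48 to 0.50 in the others.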

How the results depend on the processing

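The cluster's median log2 fold change at week 1 was −0.45 with RLE size factors and −0.50 with a replicate block, against −0.51 as reported. Counts of miRNAs called for control week 1, control week 3, high-fat week 1 and high-fat week 3, each against day 1, were 7, 6, 32 and 11 with DESeq2, and 22, 4, 44 and 14 with limma-voom, which also called 17 for diet at week 1. Without a filter on low counts, and likewise with only the groups compared, they were 0 for control week 1, 0 for control week 3 and 1 for high-fat week 3. With a mean CPM of at least 10 they were 1 for control week 3 and 3 for high-fat week 3. The replicate block gave 2 for control week 1 and 0 for control week 3, and the numbers do not pair the libraries. Without the 3 libraries lowest in leukocyte miRNAs control week 3 had 0. Without the 3 highest in muscle miRNAs there were 31 for diet at week 1, 2 for control week 1, 9 for high-fat week 1 and 1 for high-fat week 3. The leukocyte covariate gave 2 for high-fat week 3. The causes were not tested. The leukocyte settings and the muscle setting were chosen after seeing the data.

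Signs turned for these uncalled diet estimates (log2). At day 1, no filter gave −0.046 for miR-17-5p, −0.0041 for miR-17-3p and −0.00054 for miR-18a-5p, limma-voom −0.047 for miR-17-5p, −0.062 for miR-18a-5p and −0.022 for miR-20a-3p, and removal of muscle-high libraries −0.0027 for miR-17-5p. The covariate gave −0.11 for miR-17-5p, −0.093 for miR-17-3p, −0.027 for miR-18a-5p, −0.15 for miR-19a-3p and −6.3e-05 for miR-92a-3p at day 1, and 0.074 for miR-17-5p, 0.028 for miR-17-3p, 0.30 for miR-18a-3p and 0.17 for miR-20a-5p at week 1. At week 3, RLE gave 0.0036 for miR-20a-3p, and a mean CPM of at least 10, which drops 3 arms, gave 0.014 for miR-19a-3p and 0.0045 for miR-19b-3p.

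Leaving out 1 library at a time, calls ranged from 0 to 13 for control week 1, 0 to 4 for control week 3, 0 to 4 for high-fat week 1, 0 to 2 for high-fat week 3, 0 to 22 for diet at week 1 and 0 to 2 for mean diet; the 22 came without library 4 of the control week 1 group. Uncalled diet estimates that changed sign ranged at day 1 from −0.086 to 0.14 for miR-17-5p, −0.02 to 0.19 for miR-17-3p, −0.14 to 0.23 for miR-18a-5p, −0.019 to 0.25 for miR-19a-3p, −0.14 to 0.0069 for miR-20a-5p and −0.10 to 0.86 for miR-92a-1-5p. At week 1 only miR-18a-3p changed sign, at −0.33 to 0.13, and at week 3 miR-18a-5p (−0.31 to 0.017), miR-19a-3p (−0.25 to 0.12), miR-20a-3p (−0.18 to 0.27) and miR-19b-3p (−0.21 to 0.14). Log2 ratios with no call that changed sign for diet were miR-20a-3p to miR-20a-5p (−0.10 to 0.047), miR-92a-3p to miR-17-5p (−0.081 to 0.0034), miR-17-5p to miR-106a-5p (−0.082 to 0.27), miR-20a-5p to miR-20b-5p (−0.015 to 0.28), miR-92a-3p to miR-363-3p (−0.071 to 0.16) and miR-17-5p to miR-93-5p (−0.036 to 0.024). For time they were miR-19b-3p to miR-19a-3p (−0.078 to 0.12 at week 1, −0.18 to 0.013 at week 3), and at week 3 miR-18a-3p to miR-18a-5p (−0.24 to 0.0049), miR-17-5p to miR-106a-5p (−0.14 to 0.24) and miR-20a-5p to miR-20b-5p (−0.065 to 0.33).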
